A study of Mus musculus with 2 samples.

Results

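The MHC class II presentation genes Cd74, H2-Aa, H2-Ab1, H2-Eb1, H2-DMa, H2-DMb1 and Ciita were followed across the cells of the mouse aortic root and ascending aorta. They were chosen by name for their place in the pathway, and all 7 had a row among the 18920 genes of both deposited tables. The study treated Fbn1C1041G/+ mice, a model of Marfan syndrome in which 1 copy of the fibrillin-1 gene carries a missense change, with GLPG0187, an inhibitor of αv integrins, or with its vehicle. Treatment was daily from 6 weeks of age, and the tissue was taken at 16 weeks. Both groups carried the Fbn1 allele in every cell, so no wild-type tissue was compared. Each group was 1 single-cell RNA library made from pooled male and female animals, the GLPG0187 library with 4397 cells and the vehicle library with 2961. Cells were freed with enzymes and sorted to remove debris. The series' title frames the comparison as one of integrin αv antagonism and aortic root aneurysm.

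MHC class II molecules carry peptides from the endosomal route to the cell surface, where CD4 T cells read them. H2-Aa and H2-Ab1 encode the α and β chains of the I-A molecule, and H2-Eb1 encodes the β chain of I-E. Cd74 is the invariant chain, which guides new class II molecules to endosomes and fills their groove until H2-DM, the product of H2-DMa and H2-DMb1, helps exchange its last fragment for a peptide. Ciita is the coactivator that switches the whole set on, constitutively in dendritic cells and B cells, and after interferon-gamma, with Irf1 among the factors that act on its gene, in macrophages, endothelium and fibroblasts. Vascular endothelium and stromal cells can thus carry class II molecules in an inflamed tissue.

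Class II promoters are known for a shared X box, bound by the RFX complex, and a Y box, bound by NF-Y, on which Ciita docks without touching DNA itself. RefSeq promoter windows (GRCm38.p6) were matched for 4 of the 7 genes. The 120 bases before the transcript start are shown for H2-Aa (chr17:34287824-34287943, minus strand) and H2-Eb1 (chr17:34305747-34305866, plus strand), because these genes moved together in the values below and both annotations place their start at the same base. Capitals mark matches, on either strand, to the Y box core ATTGG and to a shortened X box consensus, the X box without its first 3 positions.
H2-Aa: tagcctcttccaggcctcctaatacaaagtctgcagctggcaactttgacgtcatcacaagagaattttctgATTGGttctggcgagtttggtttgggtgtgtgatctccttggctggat
H2-Eb1: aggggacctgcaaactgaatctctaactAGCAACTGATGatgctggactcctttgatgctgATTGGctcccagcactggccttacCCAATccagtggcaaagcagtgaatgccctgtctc
In H2-Eb1 the X box match began 92 bases and the forward Y box match 59 bases before the start. In H2-DMb1 the same pair of matches began 95 and 61 bases before the RefSeq start, at nearly the same spacing (33 bases between starts in H2-Eb1 and 34 in H2-DMb1). H2-DMb1 also matched the full X box consensus, with CCTAGTAACTGATG, a match that contains the shorter one. In H2-Aa the Y box match began 48 bases before the start, and the X box in either form had no match in the 250 bases searched. The search took only exact matches to the fixed letters, so it does not show that H2-Aa lacks an X box. H2-DMa had 2 windows, of which 1 held a Y box match, 198 bases before its start. Searched on both strands of the same 250 bases, ATTGG occurred in 33.8% of all 32851 windows, the shortened X box in 0.816% and the full X box in 0.0487%. The Y box core alone is thus common among promoters, whereas the X box letters are rare.

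In the GRCm38 annotation of GENCODE M21, 5 of the 7 genes, all protein-coding, lie within 197.1 kb of chromosome 17. From left to right these are H2-DMa (34119541 to 34139101, plus strand), H2-DMb1 (34153072 to 34160230, plus), H2-Ab1 (34257689 to 34269419, plus), H2-Aa (34282744 to 34287823, minus) and H2-Eb1 (34305867 to 34316674, plus). Ciita lies on chromosome 16 (10480059 to 10528418, plus) and Cd74 on chromosome 18 (60803848 to 60812652, plus).

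The deposited values are whole numbers corrected for depth, with medians of 14942 and 14806 per cell, and they are not raw molecule counts. The raw depth is unknown, so intervals on shares of cells cover the number of cells only. Cells were clustered from both libraries together and named from marker genes. With 1 library per treatment there is no replicate and no test between treatments. All differences between treatments below are differences between these 2 libraries, and a gene was counted as higher or lower when its log2 ratio passed a 1.5-fold change. A gene was measured in a cell group when its values summed to at least 100 over both libraries. Ratios compare the gene's share of the group's total values, with 1 added to each sum. The class II genes were left out of the genes used for clustering, but the groups were still defined on the same cells, so differences between cell groups are descriptions. The libraries shared 5 cell barcodes.

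Among the whole cell classes, dendritic-like cells had the highest mean of each of the 7 genes in each library. A sub-cluster of the macrophage-like cells of the GLPG0187 library, led by H2-M2 and described below, lay above them for Cd74 and close to them for H2-Aa (163 and 162). In these few cells, 17 from the GLPG0187 library and 10 from the vehicle library, the mean value of Cd74 per cell was 313 and 364, and Cd74 and all 3 chain genes were above 0 in every cell. The group detected 7 of its 9 marker genes in at least 25% of cells in both libraries, and the macrophage gene C1qa was at 0 in its vehicle cells. The class II level was alike in the 2 libraries: of 6 members measured, 1 was higher in GLPG0187 (7.74% of all measured genes were), and the median log2 ratio was 0.04. The member that was higher was H2-DMb1, with means of 13.1 and 6.20 and a vehicle sum of 62, below the minimum. Its near copy H2-DMb2 had means of 1.88 and 2.10 in the same cells, and reads that fit both genes may have been assigned to either.

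Macrophage-like cells came next, and they held most of the class II transcripts of the tissue. They made up 7.56% of GLPG0187 cells and 5.98% of vehicle cells, and held 83.5% and 73.9% of the summed values of the 3 chains. Cd74 averaged 279 per cell under GLPG0187 and 173 under vehicle, and the medians lay further apart, at 293 and 90. The chains followed: H2-Aa averaged 119 and 68.9, H2-Ab1 114 and 65.9, and H2-Eb1 109 and 62.2. H2-DMa and H2-DMb1, the peptide editors, averaged 7.66 and 4.19, and 7.74 and 3.86. Ciita was above 0 in 39.8% of GLPG0187 cells (95% exact binomial interval 34.5 to 45.3) and in 17.6% of vehicle cells (12.3 to 24.1). All 7 members were measured and all 7 were higher in the GLPG0187 library, with a median log2 ratio of 0.78 and a range from 0.66 for Cd74 to 1.28 for Ciita. Ciita, with a vehicle sum of 51, would not have reached the minimum on its vehicle values, so its call supports nothing. The next highest ratio was 0.98, for H2-DMb1. Of all 6211 genes measured in macrophage-like cells, 6.44% were higher, and their median log2 ratio was -0.02. The summed level of the 9 macrophage markers was 218 in GLPG0187 and 234 in vehicle cells, so it was not higher where class II was. The median log2 ratio was 1.24 in the cells with Xist and no Y-linked gene above 0 (38 GLPG0187 and 37 vehicle cells), and 0.69 in those with Y-linked genes and no Xist.

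**Figure D1:**
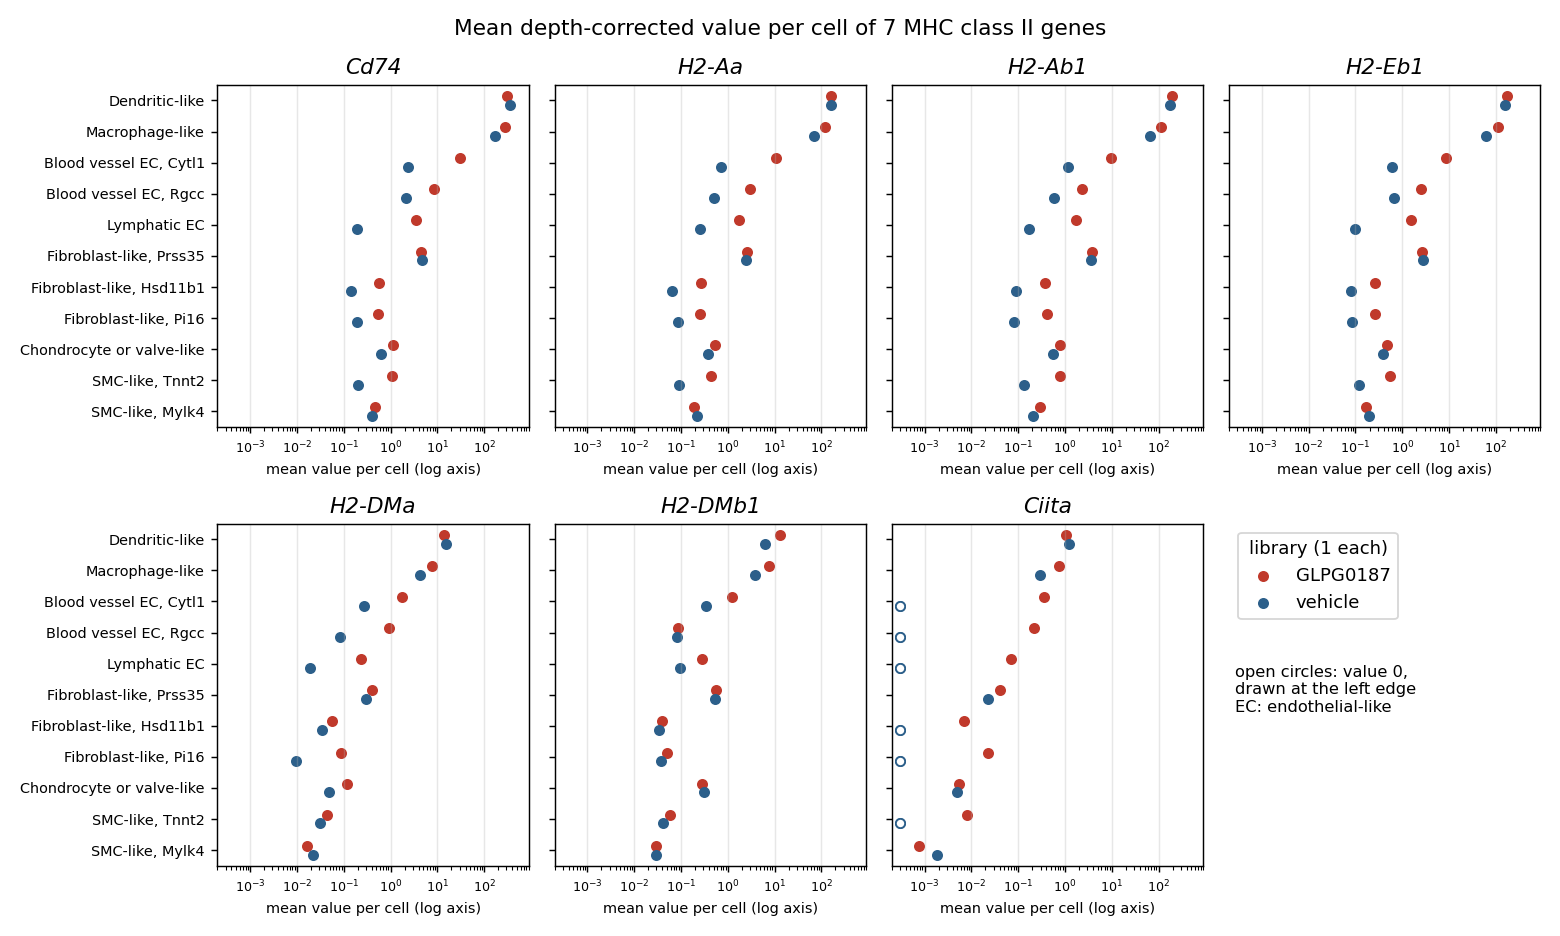
Mean value per cell (log axis) of each of the 7 genes in 11 cell groups, 1 point per library; open circles stand for 0. Dendritic-like and macrophage-like cells lie furthest right. For Cd74 and the 3 chains the gap between libraries is widest in the lymphatic and the Cytl1-led blood vessel groups. Ciita was at 0 in the vehicle library there, and also in the Rgcc-led, Hsd11b1-led, Pi16-led and Tnnt2-led groups.

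The macrophage difference was not a shift of every cell by one factor. H2-Aa was above 0 in 93.3% of GLPG0187 cells and in 69.9% of vehicle cells. In the vehicle library the summed chain value had a median of 42 beside a mean of 197. In the GLPG0187 library the median was 371 and the mean 343. At the upper end the libraries lay closer: the 90th percentile of the summed chain value was 625 under GLPG0187 and 566 under vehicle. Cd74 was at 10 or more in 94.5% of GLPG0187 cells and in 73.3% of vehicle cells. Ciita was above 0 in 42.1% of these Cd74-rich cells under GLPG0187 and in 23.3% under vehicle. Of the vehicle cells with Cd74 at 0, 1 of 16 had Ciita above 0, and of those with Cd74 from 1 to 9, 0 of 31 did.

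Lyve1 and Folr2 mark tissue-resident macrophages that are known for low class II in healthy tissue, and the split by these genes separated the libraries further. In the vehicle library the 88 cells with Lyve1 or Folr2 above 0 had a mean summed chain value of 127, against 267 in the 88 cells with both at 0, a log2 difference of -1.06. That difference was -0.25 in cells with Xist and no Y-linked gene above 0, of which there were 24 positive and 13 negative, and -1.62 in those with Y-linked genes and no Xist. In the GLPG0187 library the 141 positive cells averaged 349 and the 188 negative cells 338, a log2 difference of 0.05. The Lyve1 or Folr2 positive cells of the vehicle library were thus the low group, and their Cd74 had a median of 40.5 beside 285 in the GLPG0187 library. All 7 members were higher in the positive cells of the GLPG0187 library, with a median log2 ratio of 1.41, where 4.70% of measured genes were higher. In the negative cells 2 of 7 were higher (Ciita and H2-DMb1), with a median of 0.36, where 9.10% of measured genes were higher. The difference between these 2 ratios was not tested, since each rests on 1 library per treatment. Ciita would not have reached the minimum on its vehicle values in the positive or the negative cells, with vehicle sums of 24 and 27. A value of 0 for Lyve1 or Folr2 does not show that a cell lacked the gene.

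The ratio between libraries also differed among the sub-clusters of the macrophage-like cells, again without a test. In the sub-cluster led by Cd209f, a gene of resident macrophages, Cd74 averaged 282 in 121 GLPG0187 cells and 116 in 76 vehicle cells, and all 6 measured members were higher (4.66% of measured genes were). In the sub-cluster led by H2-M2 the means were 386 in 88 cells and 266 in 59 cells, and 5 of 7 members were higher (6.16%). Ciita was 1 of the 5, with a vehicle sum of 19 that would not have reached the minimum. In the sub-cluster led by Plac8, a gene of monocytes, the Cd74 means were 188 in 90 cells and 156 in 24 cells. There, 0 of 6 measured members were higher (11.7%). A last sub-cluster of 30 and 17 cells carried stromal genes and was led by Cygb. Without it the median ratio of the whole class was 0.76.

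**Figure D2:**
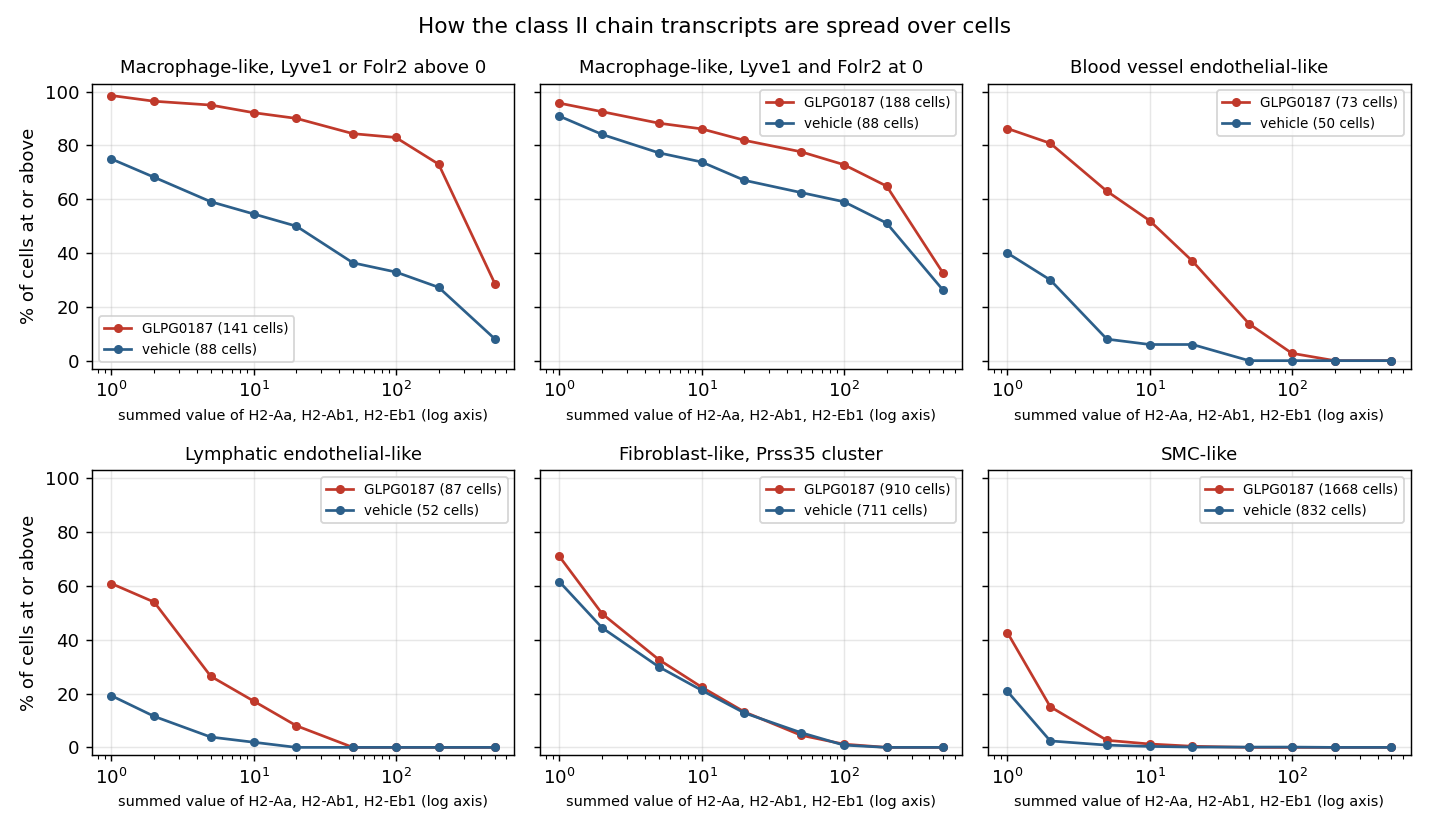
Share of cells (%) whose summed value of H2-Aa, H2-Ab1 and H2-Eb1 reached each level on the x axis (log axis), for 6 cell groups and both libraries. The curves of the fibroblast-like cells led by Prss35 nearly coincide, and those of the blood vessel endothelial-like and the Lyve1 or Folr2 positive macrophage-like cells lie far apart.

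Blood vessel endothelium showed a larger ratio between libraries from a far lower level. In the 73 blood vessel endothelial-like cells of the GLPG0187 library Cd74 averaged 23.9, with a median of 12 and a highest value of 158. In the 50 cells of the vehicle library it averaged 2.28, with a median of 0 and a highest value of 35. Cd74 was above 0 in 83.6% of GLPG0187 cells (73.0 to 91.2) and in 30% of vehicle cells (17.9 to 44.6). The 3 chains moved with it: H2-Aa averaged 8.22 and 0.620, H2-Ab1 7.41 and 0.880, and H2-Eb1 6.58 and 0.640. Cd74 and all 3 chains were above 0 together in 57.5% of GLPG0187 cells (45.4 to 69.0) and in 8% of vehicle cells (2.22 to 19.2). H2-DMa averaged 1.48 and 0.180, and H2-DMb1 averaged 0.863 and 0.220, of which H2-DMb1 did not reach the minimum. Ciita was above 0 in 13 of 73 GLPG0187 cells (17.8%) and in 0 of 50 vehicle cells. A count of 0 allows up to 6.00% of cells with a value above 0 (3 cells of the total), and sets no limit on the share of cells that express the gene. Of the 7 members 5 were measured, and among them only Cd74, with a vehicle sum of 114, would have reached the minimum on its vehicle values. Their log2 ratios ran from 2.86 for H2-DMa to 3.65 for H2-Aa, and 6.47% of all 2706 measured genes were higher.

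The blood vessel endothelium held 2 sub-clusters, and Cd74 was higher in the GLPG0187 library in both. The sub-cluster led by Cytl1 held 50 GLPG0187 and 26 vehicle cells, and Cd74 was above 0 in 90% (78.2 to 96.7) and 23.1% (8.97 to 43.6) of them, with means of 31.1 and 2.38. The sub-cluster led by Rgcc held 23 and 24 cells, and Cd74 was above 0 in 69.6% (47.1 to 86.8) and 37.5% (18.8 to 59.4), with means of 8.39 and 2.17. In the Cytl1-led cells Cd74 and the 3 chains were measured, with a median log2 ratio of 3.66 (6.54% of measured genes were higher). None of these 4 would have reached the minimum on its vehicle values, so their entry depended on the library in which they were high, and their count supports nothing. In the Rgcc-led cells only Cd74 was measured, with a log2 ratio of 1.89, and the unmeasured chains averaged 2.26 to 3.04 beside 0.5 to 0.667. Whether the sub-clusters differed in their ratio was not tested.

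Lymphatic endothelium, set apart by all 7 of its markers, had less class II than blood vessel endothelium in both libraries. In the 87 lymphatic endothelial-like cells of the GLPG0187 library Cd74 averaged 3.46 and was above 0 in 46.0% (35.2 to 57.0). In the 52 cells of the vehicle library it averaged 0.192, with no value above 3, and was above 0 in 11.5% (4.35 to 23.4). The summed level of the 3 chains was lower in lymphatic than in blood vessel endothelial-like cells by a log2 difference of -2.10 in the GLPG0187 library and of -2.03 in the vehicle library. The share of cells with Cd74 above 0 was lower by 37.6 percentage points under GLPG0187 (95% interval of the difference -50.8 to -22.3) and by 18.5 points under vehicle (-34.7 to -1.46). These intervals cover the number of cells within 1 library each. The number of genes detected per cell was similar, with medians of 2978 and 2952.5 in lymphatic and of 3182 and 2990.5 in blood vessel cells.

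Between libraries the lymphatic cells moved in the same direction as the blood vessel cells. H2-Aa averaged 1.77 and 0.25, H2-Ab1 1.70 and 0.173, and H2-Eb1 1.57 and 0.0962. Ciita was above 0 in 4 of 87 GLPG0187 cells and in 0 of 52 vehicle cells, which by the same rule allows up to 5.77% with a value above 0. Only Cd74 and the 3 chains reached the minimum, again through the GLPG0187 library, and their log2 ratios ran from 2.72 to 4.03, where 4.93% of all 3025 measured genes were higher. These ratios rest on very low vehicle values, 10 in all for Cd74 over 52 cells. The vehicle share of 11.5% lay beside 12% in the smooth muscle cell (SMC)-like cells described below. The GLPG0187 share of 46.0% lay above the 27.2% of its SMC-like cells. Among cells with Cd74 at 0, SMC-like cells detected more genes (medians 4038 and 4149) than lymphatic cells (2938 and 2939). How far free RNA gave these shares was not tested, so the vehicle share is not read as expression.

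In the GLPG0187 library the lymphatic values differed between cells of the sexes, and in the vehicle library they were low in both. Cells were separated by whether only Xist or only Y-linked genes were above 0. In the GLPG0187 library Cd74 averaged 9.78 in 23 Xist-only lymphatic cells, with 73.9% above 0, and 0.942 in 52 Y-only cells, with 34.6% above 0. In the vehicle library the means were 0.25 in 12 and 0.179 in 28 cells, with 8.33% and 14.3% above 0. With Xist-only cells the GLPG0187 difference in share between lymphatic and blood vessel endothelium was -3.86 points, and with Y-only cells it was -55.0 points. In blood vessel endothelial-like cells the libraries differed on both sides: Cd74 averaged 30.6 and 3.57 in Xist-only cells, and 22.0 and 1.93 in Y-only cells. The animals behind each sex are not separable, so sex and single animals cannot be told apart.

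**Figure D3:**
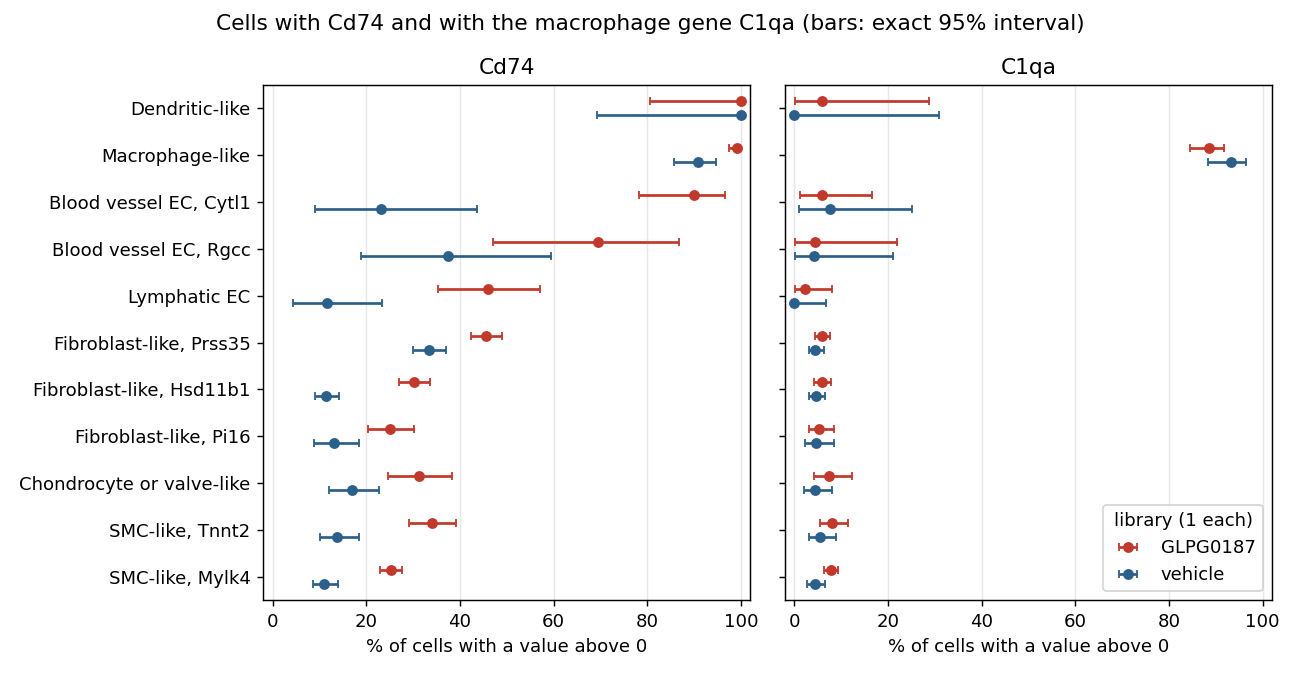
Share of cells (%) with a value above 0 for Cd74 (left) and for the macrophage gene C1qa (right) in 11 cell groups, with exact 95% binomial intervals over cells; 1 point per library. C1qa stays below 10% outside macrophage-like cells in both libraries, while Cd74 reaches 90% in the blood vessel endothelial-like cells led by Cytl1.

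Macrophage transcripts in the endothelial cells were measured beside these values. C1qa in blood vessel endothelial-like cells stood at 0.106% of the macrophage level in the GLPG0187 library and at 0.114% in the vehicle library, and Cd74 stood at 8.58% and 1.32%. Of the 9 macrophage markers, 1 and 3 were at 0 in these cells, the median marker stood at 0.316% and 0.084% of its macrophage level, and the summed level was 1.14 and 0.780. The highest was Mertk, at 82.3% and 55.7%, a receptor that the SMC-like cells carried above the macrophage level. In the cells with none of C1qa, C1qb, C1qc, Csf1r and Cd68, Cd74 averaged 22.9 in 57 and 2.44 in 45 blood vessel endothelial-like cells, and the median log2 ratio was 3.17, beside 3.28 in all of them. In the lymphatic cells without these genes the median was 3.54, beside 3.46 in all. The part of other macrophage RNA in these values was not tested. Dendritic markers summed to 0.836 and 1.16 in blood vessel endothelial-like cells, against 40.1 and 41.9 in dendritic-like cells.

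In blood vessel endothelium most cells with Ciita were rich in Cd74. Of the 37 blood vessel endothelial-like cells of the GLPG0187 library with Cd74 at 10 or more, 11 had Ciita above 0 (29.7%, 15.9 to 47.0), and all 37 had H2-Aa. Of the 24 cells with Cd74 from 1 to 9, 1 had Ciita, and of the 12 with Cd74 at 0, 1 had it. The 3 vehicle cells with Cd74 at 10 or more had no Ciita, which at this number of cells shows little. All 11 of the Cd74-rich cells with Ciita were Cytl1-led, and the 2 Rgcc-led cells with Ciita had Cd74 below 10. In the lymphatic cells of the GLPG0187 library 3 of the 4 cells with Ciita had Cd74 from 1 to 9, and 1 had 10 or more.

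Taken whole, the fibroblast-like cells were even: Cd74 averaged 2.39 and 2.19, and 0 of 6 measured members were higher in the GLPG0187 library (1.81% of measured genes were). They split into a cluster with more class II and 2 clusters with less. In the cluster led by Prss35, Cd74 averaged 4.50 in 910 GLPG0187 cells and 4.65 in 711 vehicle cells, and was above 0 in 45.6% (42.3 to 48.9) and 33.3% (29.9 to 36.9). At least 1 of the 3 chains was above 0 in 71.0% and 61.6% of its cells. Cd74 and all 3 chains were above 0 together in 23.4% and 20.7% of cells, and Cd74 was at 10 or more in 9.89% and 10.4%. The libraries lay further apart in the share with any Cd74 than in the shares with high or complete class II transcripts. Of 6 members measured, 0 were higher, with a median log2 ratio of 0.07, where 1.56% of measured genes were higher. Among the Cd74-rich cells of this cluster 71.1% and 71.6% had H2-DMa above 0, 10.0% and 9.46% had Ciita, and 6.67% and 2.70% had C1qa. The share with C1qa was 5.86% and 4.64% among the cells with Cd74 at 0. Ctss, which macrophages also carry, was above 0 in 6.67% and 4.05% of the Cd74-rich cells and in 2.83% and 2.11% of those with Cd74 at 0, and Csf1r in 3.33% and 1.35%, and in 1.21% and 1.90%. The part of macrophage transcripts in these cells was not tested.

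The sub-clusters of the Prss35-led cluster had unlike ratios, a difference that was not tested. When this cluster was divided again, a choice made after the values were seen, the median log2 ratio of the measured members ran from -0.45 to 1.95 over its 5 sub-clusters. The lowest was in a sub-cluster with Cd74 as its leading gene although class II genes were not used to form it, with Cd74 at 11.2 in 75 GLPG0187 cells and 17 in 111 vehicle cells. The highest was in one led by the haemoglobin gene Hbb-bs, a transcript of red blood cells. There, no measured member would have reached the minimum on its vehicle values, so the highest ratio supports nothing. In that sub-cluster Cd74 averaged 8.01 and 0.314 in Xist-only cells, and 0.735 and 0.174 in Y-only cells.

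The composition of the class II transcripts differed between these fibroblast-like cells and the macrophage-like cells. For every 100 of Cd74, the Prss35-led cluster held 83.6 and 78.5 of H2-Ab1 in the 2 libraries, and macrophage-like cells held 41.0 and 38.1. For H2-DMb1 the figures were 12.5 and 11.6 in the Prss35-led cluster, and 2.78 and 2.23 in macrophage-like cells. Blood vessel endothelial-like cells held 30.9 and 38.6 of H2-Ab1 per 100 of Cd74. The Prss35-led cluster stood above both for these genes in either library. This was not particular to that cluster. Chondrocyte or valve-like cells, from lower values, held 67.0 and 85.5 of H2-Ab1, and 24.2 and 48.1 of H2-DMb1. The Hsd11b1-led fibroblast-like cluster, also from lower values, held 68.2 and 64.1 of H2-Ab1, and 6.90 and 23.9 of H2-DMb1. The values come from 3' ends, and the ratios compare cell groups, not the abundance of 1 gene with another.

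The other fibroblast-like clusters and the SMC-like cells carried low class II values. SMC are not known as a class II-bearing cell at rest, and Cd74 in SMC-like cells was above 0 in 27.2% of 1668 GLPG0187 cells (25 to 29.4) and in 12% of 832 vehicle cells (9.89 to 14.4), with means of 0.604 and 0.329. In the fibroblast-like cluster led by Hsd11b1 the shares were 30.2% and 11.4%, and in that led by Pi16 they were 25.1% and 13.1%. These shares lay close to those of SMC-like cells in the same library. The macrophage gene C1qa stood at 0.132% and 0.125% of its macrophage level in SMC-like cells, and Cd74 at 0.217% and 0.191% of its own. The vehicle C1qa level leaned on very few cells, since it averaged 16.5 in the 2 vehicle cells with Cd74 at 10 or more. Among the SMC-like cells with Cd74 at 0, C1qa was above 0 in 7.08% of GLPG0187 and in 4.51% of vehicle cells. C1qa is thus not read as even between libraries.

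Members in these cells were called on such values and are given as description. In SMC-like cells 4 members were measured and 3 were higher, with a median log2 ratio of 0.73 (0.615% of measured genes were higher). With only the Xist side of the SMC-like cells the median was 1.88, and with only the Y-linked side it was 0.24. A single vehicle cell with Cd74 at 128, on the Y-linked side, gave much of the vehicle total of 274. The 2 medians are thus not read as a difference between the sexes. Cd74 was above 0 in 27.8% and 14.2% of cells on the Xist side, and in 27.3% and 10.4% on the Y-linked side. In the SMC-like cells with none of the 5 macrophage genes, the median was 1.71 and Cd74 averaged 0.540 and 0.145. In the Hsd11b1-led cluster the 4 measured members had a median of 1.99 (2.19%), in the Pi16-led cluster the 3 measured members had one of 1.57 (3.33%), and in the SMC-like cluster led by Tnnt2 the 4 measured members had one of 2.34 (2.42%). In these 3 clusters no member would have reached the minimum on its vehicle values, so their entry depended on the GLPG0187 values here too. In the SMC-like cluster led by Mylk4 0 of 4 were higher, with a median of 0.02 (0.542%), but this cluster held the vehicle cell with Cd74 at 128, out of a vehicle total of 217. In its cells with none of the 5 macrophage genes Cd74 averaged 0.442 and 0.110, and the summed chains 0.611 and 0.228. Chondrocyte or valve-like cells had Cd74 at 1.16 and 0.633, and 1 of 5 measured members was higher (2.28%). In a cluster left unnamed, of 36 and 44 cells, Cd74 averaged 2.22 and 0.409 and 0 members reached the minimum. How far free RNA in the suspension gave these values was not tested.

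**Figure D4:**
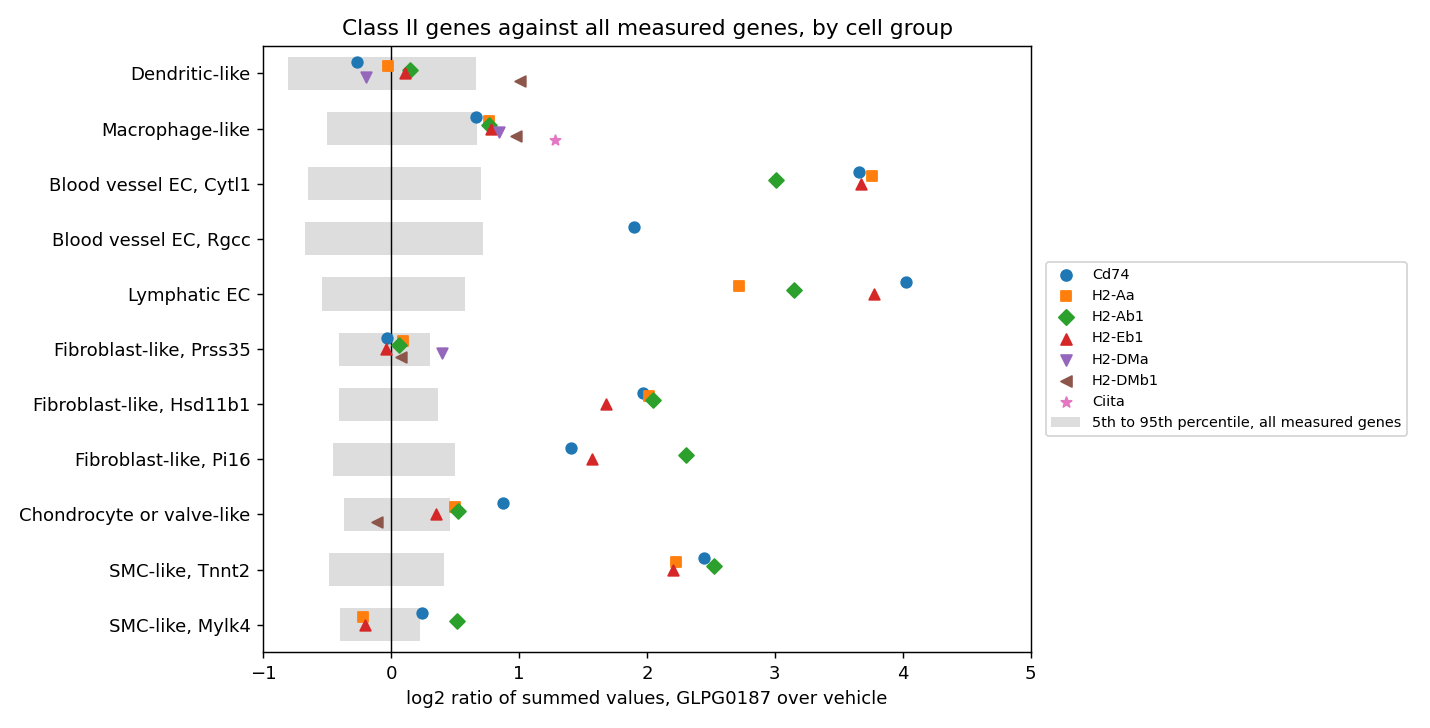
Log2 ratio of summed values, GLPG0187 over vehicle, for each member that was measured in each of 11 cell groups; grey bars span the 5th to 95th percentile of all measured genes of the group. All measured members lie beyond the grey bar in the endothelial groups, and also in the Hsd11b1-led, Pi16-led and Tnnt2-led groups. In each of these groups no plotted member would have reached the minimum on its vehicle values, so this place supports nothing. They lie inside it in the dendritic-like cells except for H2-DMb1, and in the Prss35-led fibroblast-like cells except for H2-DMa.

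The rest of the pathway was counted from a list of 34 genes, of which 31 had a row in the files. In macrophage-like cells 24 were measured, 2 were higher in the GLPG0187 library and 0 lower, beside 6.44% of all measured genes that were higher and 3.24% that were lower, so the share higher was near that of all genes. The 2 were Socs1, which damps interferon-gamma signalling, with means of 0.374 and 0.0795 (log2 ratio 2.12), and Cd40, a costimulatory receptor, with 1.15 and 0.744 (0.59). Socs1, with a vehicle sum of 14, reached the minimum only through the GLPG0187 library, so its call supports nothing. Irf1 was even, at 1.32 and 1.49. The proteases that prepare the peptide were even too, with Ctss, which trims the invariant chain, at 35.3 and 33.8. The costimulatory gene Cd86 averaged 4.4 and 4.39.

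In both endothelial groups Irf1, a transcription factor of the interferon response, was higher in the GLPG0187 library. Irf1 averaged 2.21 and 0.720 in blood vessel endothelial-like cells (log2 ratio 1.55) and 0.908 and 0.519 in lymphatic endothelial-like cells (0.76). Its vehicle sums of 36 and 27 would not have reached the minimum, so its entry depended on the GLPG0187 values. In all, 9 of the 31 genes were measured in each group, of which 2 were higher and 1 lower in blood vessel cells, and 3 higher and 0 lower in lymphatic cells. Of all measured genes, 6.47% were higher and 6.87% lower in blood vessel cells, and 4.93% and 4.03% in lymphatic cells. The others beyond 1.5-fold were Lgmn and Creb1 in blood vessel cells, and Sppl2a and Nfyb in lymphatic cells. Their vehicle sums, 59, 61, 42 and 25 in this order, would not have reached the minimum either, so the counts support nothing. The interferon-gamma receptor gene Ifngr1 was even, with log2 ratios of -0.01 and 0.06.

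In fibroblast-like cells 2 of 22 measured pathway genes were higher: Irf1 (1.80 and 1.03) and Ctss (0.0625 and 0.0260), beside 1.81% of all measured genes. Ctss, with a vehicle sum of 41, reached the minimum only through the GLPG0187 library. In SMC-like cells 1 of 20 was higher, Irf1, with 0.312 and 0.139, beside 0.615% of all measured genes. The 7 factors that bind the class II promoters, Rfx5, Rfxap, Rfxank, Nfya, Nfyb, Nfyc and Creb1, were all measured in fibroblast-like and in SMC-like cells, and 0 of the 7 were higher in either, which at these shares of all genes says little. In dendritic-like cells 7 were measured, with Spi1 higher and Cd86 lower (7.74% of all measured genes were higher and 9.86% lower). Neither would have reached the minimum on its vehicle values, which summed to 33 and 69.

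**Figure D5:**
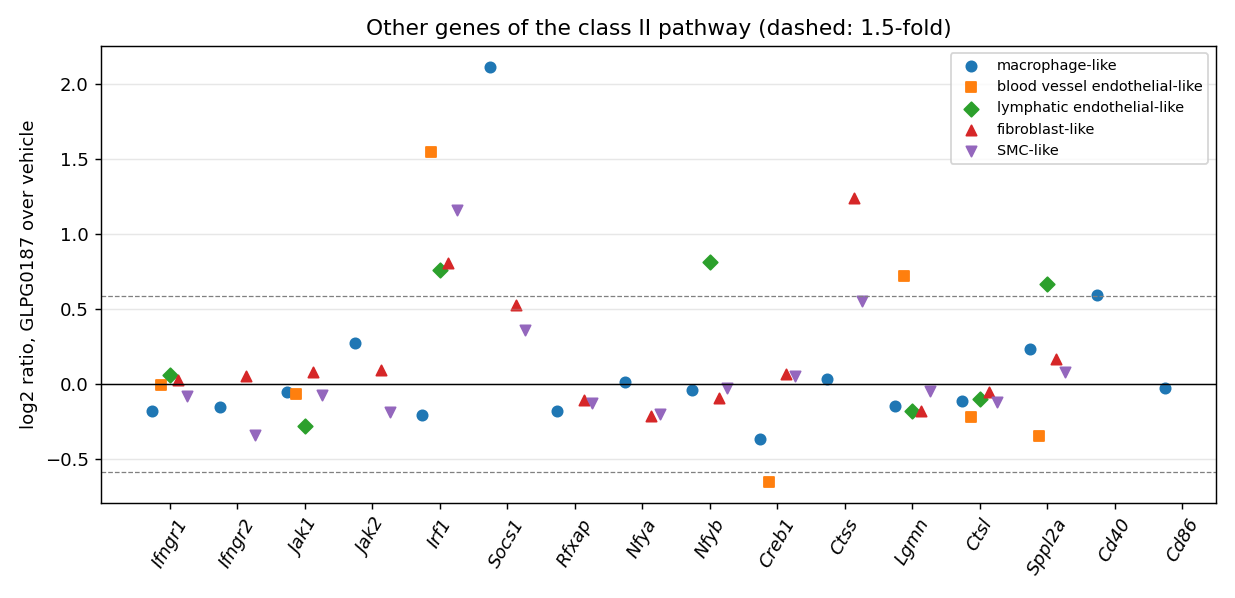
Log2 ratio, GLPG0187 over vehicle, of 16 other genes of the class II pathway in 5 cell classes, for the genes that were measured there; dashed lines mark 1.5-fold. Socs1 lies highest in macrophage-like cells, and Irf1 lies above the line in both endothelial groups, in fibroblast-like and in SMC-like cells. Ifngr1, Ifngr2, Jak1 and Jak2 lie between the dashed lines. Socs1 in macrophage-like cells and Irf1 in the endothelial groups would not have reached the minimum on their vehicle values.

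Other genes with the pattern of Cd74 and the 3 chains were sought over 16 points, the 8 cell classes in each library, among 6643 genes. The 8 most alike by Pearson correlation of log2 means were Phf11b (r = 0.961), Samhd1 (0.957), Trim30d (0.957), Neurl3 (0.949), Rps29 (0.944), Mpeg1 (0.943), Slc15a3 (0.941) and Tnip1 (0.940). Ciita itself had a correlation of 0.966 with the same profile, H2-DMa 0.992 and H2-DMb1 0.957. Points of 1 library share that library, and 4 of the 16 belong to macrophage-like and dendritic-like cells, so these are descriptions without a test. Samhd1, which limits nucleotides for viral replication, averaged 4.81 and 2.03 in macrophage-like cells and 1.51 and 0.580 in blood vessel endothelial-like cells. Phf11b averaged 2.06 and 0.807, and 0.370 and 0.0600, in the same cells.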

How the data were processed

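The 2 single-cell RNA libraries (10x 3' version 3), 1 per treatment, were analysed. The values the authors deposited are whole numbers whose totals had been evened out between cells, taken as a score in place of UMI counts. Their totals per cell varied by 5.69% and 5.81% (coefficient of variation). Per the submitters' processing notes, Cell Ranger, Seurat and the build mm10 were used; their versions and settings are unknown here. The design had foreseen UMI counts, so no count model was used. Scrublet in scanpy 1.11.5 marked 48 and 16 cells as doublets, leaving 4349 and 2945. Values were scaled to 10000 per cell, and 2000 variable genes without the class II genes, 30 principal components and 20 neighbours gave Leiden clusters at resolution 0.5 (igraph 0.11.9, scikit-learn 1.9.0, Python 3.11.15). A cluster was called "X-like" when enough of its markers (at least 3, and 75% of the list) were found in 25% of cells and lay 3-fold above the median cluster. Endothelial sub-clusters were called lymphatic where lymphatic markers exceeded blood vessel markers in mean log2 fold. These thresholds were chosen with the data in view. Intervals on single shares are exact binomial (scipy 1.17.1). Those on a difference between 2 shares combine the limits of both and are not exact themselves. The ratio step was tested on simulated data. The named genes were the 7 members, the pathway list, the 8 genes most like them, and the genes that lead each group. A gene of the pathway list is not reported here. Alternatives were the clustering resolution, doublets kept, scaling per library, class II genes allowed among the variable genes, no division by totals, no minimum, 10 added to each sum and either sex alone. The members and lists were chosen with earlier results of these data known. How many animals each pool held is not given in the labels.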

Additional observations from a re-analysis of the deposited data

How the results depend on the processing

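Of 94 alternative values 1 changed sign, the median log2 ratio in fibroblast-like cells, from 0.17 to -0.09 with Xist-only cells, and 79 stayed within the tolerance of 0.32 on the log2 scale or within the interval of a share. With Xist-only cells the median log2 ratio of the members was 1.24 in macrophage-like, 1.88 in SMC-like and 4.84 in lymphatic endothelial-like cells, and with Y-only cells it was 0.24 in SMC-like cells. In the Y-only SMC-like cells, 1 vehicle cell gave much of the vehicle Cd74. Y-only lymphatic endothelial-like cells gave no value, since no member reached the minimum there. With 10 added to each sum the median was 2.96 in blood vessel and 2.42 in lymphatic endothelial-like cells, and with no minimum it was 2.72 in the latter, so low values set the size of these ratios. The lymphatic against blood vessel difference in the GLPG0187 library was -3.86 points for the share with Cd74 and -1.29 for the log2 chain level with Xist-only cells, and -55.0 points and -3.11 with Y-only cells. The difference between Lyve1 or Folr2 positive and double negative macrophage-like cells of the vehicle library was -0.25 with Xist-only and -1.62 with Y-only cells. In alternatives chosen after seeing the data, the median was 1.86 in fibroblast-like cells without the Prss35-led cluster and 1.71 in SMC-like cells without macrophage transcripts. The cause was not tested. Each treatment has 1 library, so the spread between animals is unknown and no p-value is given, and the raw depth of the cells is unknown. No paired analysis was possible because each group holds 1 library.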
